A study of Mus musculus with 2 samples.

Results

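The genes described here build the contacts between epithelial cells: 35 genes of adherens junctions, desmosomes and tight junctions, with the adhesion molecules Epcam and Cd24a, chosen by name from the 55487 genes of the count table. RNA sequencing counted their transcripts in Langerhans cells, which present antigen in the epidermis and were sorted as CD207-positive and MHC class II-positive from digested mouse ears. The mice were HTR2A-/-, lacking the serotonin 2A receptor, and after sorting the cells were kept for 24 hours with imiquimod, a Toll-like receptor 7 agonist, and an agent labelled a-CD40L. The 2 samples form 1 group, called here library 1 (69925160 counts) and library 2 (42264685 counts), and wild-type or untreated cells were not analysed here. The sources used here do not give strain, age, the mice behind each sample or the part of Htr2a that was deleted. Scaled to a library total of 1000000 counts (CPM), the female-specific RNA Xist had 3.90 and 1384 CPM in libraries 1 and 2, and Ddx3y of the Y chromosome had 149 and 0.0946 CPM, so sex differs along with every ratio between the libraries below.

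Langerhans cells live among keratinocytes and hold on to them through E-cadherin, which binds E-cadherin on the neighbouring cell and is tied to actin by catenins. Desmosomes are a second kind of contact: desmogleins and desmocollins bridge the gap between cells, and plakoglobin, plakophilins and desmoplakin fasten them to keratin filaments. Tight junctions seal the space between cells with claudins and occludin, and Langerhans cells are known to carry tight junction proteins that let their processes pass the epidermal barrier. Many of these genes are active in both cell types, and in a bulk library fewer cells of a type and less RNA per cell cannot be told apart.

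Levels are given in CPM and, wherever genes are compared with each other, as CPM per kb of exon. To check the label, markers of both cell types were read first. A gene counts as above background where its CPM per kb passes the 95th percentile of 1135 olfactory receptor genes. These were taken as an empirical background, and whether these cells use any of them was not tested. That limit was 0.761 CPM per kb in library 1 and 1.58 CPM per kb in library 2. Above it in both libraries were 11 of 11 Langerhans and myeloid marker genes, 7 of 7 basal and 5 of 7 suprabasal keratinocyte genes, and none of these had 0 counts. The summed level of the 11 Langerhans and myeloid genes was 24035 CPM in library 1 and 12273 CPM in library 2. The 7 basal keratinocyte genes summed to 2989.6 CPM and 10013 CPM, and the 7 suprabasal ones to 513 CPM and 1843 CPM. Library 2 thus had 0.511 times the Langerhans and myeloid signal of library 1, 3.35 times its basal and 3.59 times its suprabasal keratinocyte signal. How far this sets the levels of junction genes was not tested.

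Sequence upstream of the start site is shown for 3 members: Epcam, Cldn1 and Cldn4. Epcam and Cldn1 each had close CPM in both libraries. Per kb of exon, Cldn1 was the highest claudin in library 1 and Cldn4 the highest in library 2. Each line holds the 250 bases before the RefSeq start site on GRCm38.p6, 5′ to 3′ on the gene's strand, at chr17:87635729-87635978 (plus strand), chr16:26371840-26372089 (minus strand) and chr5:134946935-134947184 (minus strand). Capitals mark CACCTG on either strand, the E-box bound by cadherin repressors of the Snail and Zeb families, and TGANTCA, the AP-1 motif, which reads the same on both strands.
Epcam: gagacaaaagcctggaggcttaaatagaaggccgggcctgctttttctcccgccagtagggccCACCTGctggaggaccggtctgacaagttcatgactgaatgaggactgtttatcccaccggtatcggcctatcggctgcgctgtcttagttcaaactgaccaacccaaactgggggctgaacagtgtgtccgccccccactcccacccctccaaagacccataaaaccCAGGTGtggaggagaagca
Cldn1: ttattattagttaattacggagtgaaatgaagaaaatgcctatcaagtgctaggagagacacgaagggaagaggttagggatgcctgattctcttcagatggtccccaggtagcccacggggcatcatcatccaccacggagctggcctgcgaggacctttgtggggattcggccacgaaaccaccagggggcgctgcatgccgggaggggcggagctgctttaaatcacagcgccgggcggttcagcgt
Cldn4: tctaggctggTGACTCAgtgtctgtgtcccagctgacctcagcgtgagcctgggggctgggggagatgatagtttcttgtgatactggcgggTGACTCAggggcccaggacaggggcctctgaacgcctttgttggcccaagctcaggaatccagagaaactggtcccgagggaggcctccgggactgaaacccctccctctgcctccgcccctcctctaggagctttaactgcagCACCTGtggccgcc

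The Epcam window held 2 E-boxes and no AP-1 motif, the Cldn1 window neither motif, and the Cldn4 window 1 E-box and 2 AP-1 motifs. Of 32851 upstream windows of this length in the table, 17.2% held the E-box and 6.75% the AP-1 motif. The promoter table had entries for 15 of the 25 members that lie outside chromosome 18. Their 21 windows, of which some members have several, held the E-box in 7 (Cldn4, Cldn7, Epcam, F11r, Nectin2, Ocln and Pkp4, 1 window each) and the AP-1 motif in 2 (Cldn4 and F11r). A match is a run of letters and not a site shown to be bound.

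Most junction genes were detected in both libraries. In both libraries 30 of 35 members lay above the background limit (85.7%), against 47.3% of all 21974 protein-coding genes. The 5 others were Cdh2, Cldn7 and Dsg4, which were within background in both libraries, Pkp2, which passed in library 1, and Dsc2, which passed in library 2. The median member stood at 10.6 CPM per kb in library 1 and 25.3 CPM per kb in library 2, beside 1.10 and 1.60 CPM per kb for the median protein-coding gene. Together the 35 genes took 0.510% of all counts in library 1 and 1.06% in library 2.

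**Figure D1:**
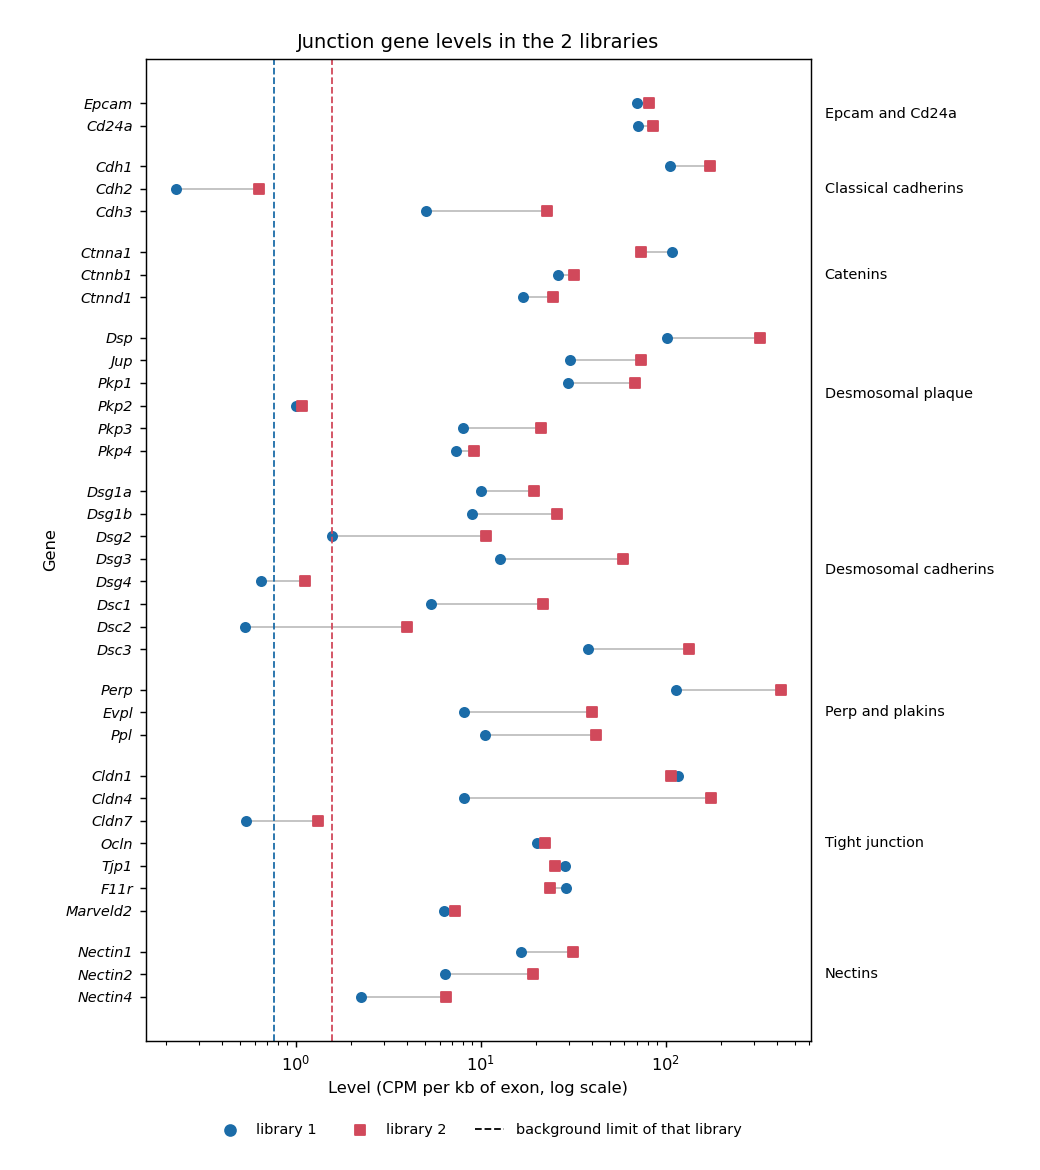
Level of each junction gene in library 1 (circles) and library 2 (squares), in CPM per kb of exon on a log scale, grouped by role. Dashed lines mark the background limit of each library (0.761 and 1.58 CPM per kb). Epcam, Cd24a, Cldn1 and Ocln lie almost on top of each other in the 2 libraries, while Cldn4 moves from 8.10 to 175 CPM per kb.

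Epcam and Cd24a were abundant and close in level in both libraries. Epcam (ENSMUSG00000045394, GRCm38 chromosome 17, 87635979 to 87651129, plus strand) encodes a surface adhesion protein that marks Langerhans cells and epithelia. It had 155 CPM in library 1 and 178 CPM in library 2, or 167 ± 16.5 CPM (SD, n = 2). Cd24a, which encodes a small glycosylated surface protein anchored by a lipid, had 182 CPM in library 1 and 221 CPM in library 2 (202 ± 27.4 CPM). Per kb of exon the pair could hardly be separated, at 70.6 and 70.7 CPM per kb in library 1 and 81.2 and 85.7 CPM per kb in library 2.

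E-cadherin was the dominant classical cadherin. Cdh1 (ENSMUSG00000000303, chromosome 8, 106603351 to 106670246, plus strand) had 481 CPM in library 1 and 793 CPM in library 2 (637 ± 221 CPM, SD, n = 2). It made up 95.2% of the summed per-kb level of the 3 classical cadherins in library 1 and 88.1% in library 2. P-cadherin, encoded by its chromosomal neighbour Cdh3 and known from basal and hair follicle keratinocytes, had 22.2 CPM and 100.1 CPM. Its share of the 3 cadherins was 4.59% in library 1 and 11.6% in library 2. Cdh2, the N-cadherin gene of nerve, muscle and fibroblasts, had 1.82 CPM and 5.09 CPM and stood at percentiles 50.8 and 48.3 of the olfactory receptor genes, so it was not detectable above background.

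Among the catenins, which link cadherins to the cytoskeleton, the actin-binding α-catenin gene led. Ctnna1 (ENSMUSG00000037815, chromosome 18, 35118859 to 35254779, plus strand) had 699 CPM in library 1 and 474 CPM in library 2 (586 ± 159 CPM, SD, n = 2). Ctnnb1, which encodes β-catenin, the partner of the cadherin tail and a transducer of Wnt signals, had 136 CPM and 166 CPM. Ctnnd1, which encodes p120-catenin and keeps cadherins at the membrane, had 125 CPM and 181 CPM. Ctnna1 exceeded both per kb in each library, at 109 against 26.1 and 17.0 CPM per kb in library 1 and 73.8 against 31.97 and 24.7 CPM per kb in library 2. Exons of Ulk4 on the other strand overlap 14.6% of Ctnnb1 exon sequence, and those of Gm28635 on the same strand 61.2% of that of Ctnnd1. Gm28635 was listed with 0 counts in both libraries, and Ulk4 with 265 and 399 counts against 9478 and 7016 for Ctnnb1. Lrrtm2 on the other strand overlaps 1.48% of Ctnna1 exon sequence and had 3385 and 1450 counts, against 48854 and 20032 for Ctnna1.

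Desmoplakin was the junction gene with the most counts. Dsp (ENSMUSG00000054889, chromosome 13, 38151294 to 38198577, plus strand), which ties desmosomes to keratin filaments, held 19.3% of all junction gene counts in library 1 and 29.5% in library 2. Its level was 985 CPM in library 1 and 3141 CPM in library 2. The plakoglobin gene Jup, whose product sits in desmosomes and adherens junctions, had 196 CPM and 476 CPM (336 ± 198 CPM, SD, n = 2).

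The plakophilins stabilise the desmosomal plaque, and the 4 genes kept 1 order per kb among those above background. Pkp1, the form of stratified epithelia, had 149 CPM in library 1 against 342 CPM in library 2, and held 64.3% and 68.3% of the summed per-kb level of the 4 plakophilin genes. Pkp3, found across epithelia, had 29.2 CPM and 76.8 CPM, a share of 17.5% and 21.3%. Pkp4, the relative that is closest to p120-catenin, had 41.99 CPM and 52.8 CPM, with shares of 16.0% and 9.29%. Pkp2, known from heart and simple epithelia, had 5.38 CPM and 5.82 CPM and shares of 2.18% and 1.09%.

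The desmosomal cadherins lie side by side on chromosome 18, from Dsc3 (start 19960930) to Dsg2 (end 20604521). Of the 8 that are members, 6 were above background in both libraries. Dsc3, the desmocollin of basal and lower spinous keratinocytes, led them with 207 CPM in library 1 and 727 CPM in library 2 (467 ± 368 CPM, SD, n = 2). It held 86.5% of the summed per-kb desmocollin level in library 1 and 83.9% in library 2. Dsc1, the desmocollin of upper layers, had 27.3 CPM and 110 CPM, with shares of 12.3% and 13.6%. Dsc2, the widespread form, had 2.80 CPM and 21.0 CPM, and lay within background in library 1 (percentile 87.8 of the olfactory receptor genes).

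Among desmogleins, Dsg3, the basal epidermal form, had 88.8 CPM in library 1 and 412 CPM in library 2, with 37.4% and 50.7% of the summed per-kb desmoglein level. Dsg1a and Dsg1b, copies of the form of upper layers that resemble each other so closely that the counts may be split wrongly between them, had 57.3 and 35.8 CPM in library 1 and 111 and 103 CPM in library 2. Dsg2, known from simple epithelia and basal cells, rested on 907 counts in library 1 and 3762 in library 2, or 13.0 CPM and 89.0 CPM. Exons of the antisense gene Gm16090, with 14 and 107 counts, overlap 3.99% of its exon sequence. Dsg4, the form of hair and upper epidermis, had 2.27 CPM and 3.90 CPM. Dsg1c, a further desmoglein gene of this stretch, is not a member and is left out of these shares and of the Dsg1 sum below. It had 3.40 CPM and 8.21 CPM and was above background in both libraries.

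Perp, which encodes a membrane protein of desmosomes and a p53 target, was the member with the highest per-kb level in library 2 and the second in library 1. It had 222 CPM in library 1 and 822 CPM in library 2, equal to 114 and 421 CPM per kb. The plakins Evpl and Ppl, whose products envoplakin and periplakin form a scaffold beneath the membrane of differentiating keratinocytes, had 51.8 and 73.1 CPM in library 1 and 257 and 289 CPM in library 2. All 3 genes were higher in library 2 by a factor between 3.69 and 4.96 in CPM.

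The tight junction genes split between 2 claudins. Cldn1 (ENSMUSG00000022512, chromosome 16, 26356642 to 26371841, minus strand), the main barrier claudin of epidermis, had 563 CPM in library 1 and 520 CPM in library 2 (541 ± 30.3 CPM, SD, n = 2). At 116 CPM per kb it was the highest member per kb in library 1, and it was the sixth in library 2. Cldn4 (ENSMUSG00000047501, chromosome 5, 134945119 to 134946934, minus strand), a claudin of the granular layer and of simple epithelia, had 14.7 CPM in library 1 (95% Poisson interval, counting error only, 13.8 to 15.6) and 318 CPM in library 2 (313 to 324). It ranked 22 of 35 per kb in library 1 and 3 of 35 in library 2. Cldn7, a claudin that binds Epcam, had 1.04 CPM and 2.58 CPM and was within background in both libraries.

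The remaining tight junction genes lay closer in CPM between the libraries than Cldn4 did, while on the TMM scale described below F11r (log2 ratio -0.80) and Tjp1 (-0.68) were lower in library 2. Ocln, which encodes occludin, had 85.4 CPM in library 1 and 94.5 CPM in library 2 (89.9 ± 6.40 CPM, SD, n = 2). Tjp1, the scaffold protein ZO-1 that holds claudins to actin, had 224 CPM and 198 CPM (211 ± 18.2 CPM). F11r, the junctional adhesion molecule JAM-A, which leukocytes also carry, had 77.2 CPM and 62.8 CPM. Marveld2, which encodes tricellulin at corners where 3 cells meet, had 21.4 CPM and 24.7 CPM.

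Nectins start adherens junctions by binding each other across cells. Nectin1 was the most abundant of the 3 per kb, with 16.6 CPM per kb in library 1 and 31.7 CPM per kb in library 2 (93.8 and 179 CPM). Nectin2, which is also a ligand of lymphocyte receptors, followed with 6.44 and 19.2 CPM per kb (22.5 and 67.1 CPM). Nectin4, a nectin of epithelia, had 2.25 and 6.49 CPM per kb (8.42 and 24.3 CPM).

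The ratio of a gene pair within a library does not depend on how libraries are scaled, and 6 of 8 pairs of related genes kept their order. Cdh1 exceeded Cdh3 per kb 20.8 times in library 1 (95% interval from the exact binomial distribution, counting error only, 19.7 to 21.8) and 7.60 times in library 2 (7.36 to 7.84). It exceeded Epcam 1.49 times (1.46 to 1.52) and 2.14 times (2.08 to 2.19). Dsc3 exceeded Dsc2 72.0 times in library 1 (62.5 to 83.3) and 33.8 times in library 2 (31.6 to 36.1), although Dsc2 was within background in library 1. Dsg3 exceeded Dsg2 8.11 and 5.49 times, Pkp1 exceeded Pkp3 3.67 and 3.20 times, and Nectin1 exceeded Nectin2 2.58 and 1.65 times.

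In the 2 other pairs the order turned. Cldn1 exceeded Cldn4 14.3 times per kb in library 1 (13.5 to 15.3), whereas Cldn4 exceeded Cldn1 1.63 times in library 2 (1.60 to 1.67), so the ratio moved by a factor of 23.4. Without length correction, Cldn1 counts exceeded those of Cldn4 in both libraries, 38.2 and 1.63 times. Dsg1a and Dsg1b summed exceeded Dsg3 1.50 times in library 1 (1.45 to 1.55), and Dsg3 exceeded them 1.30 times in library 2 (1.27 to 1.33).

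**Figure D2:**
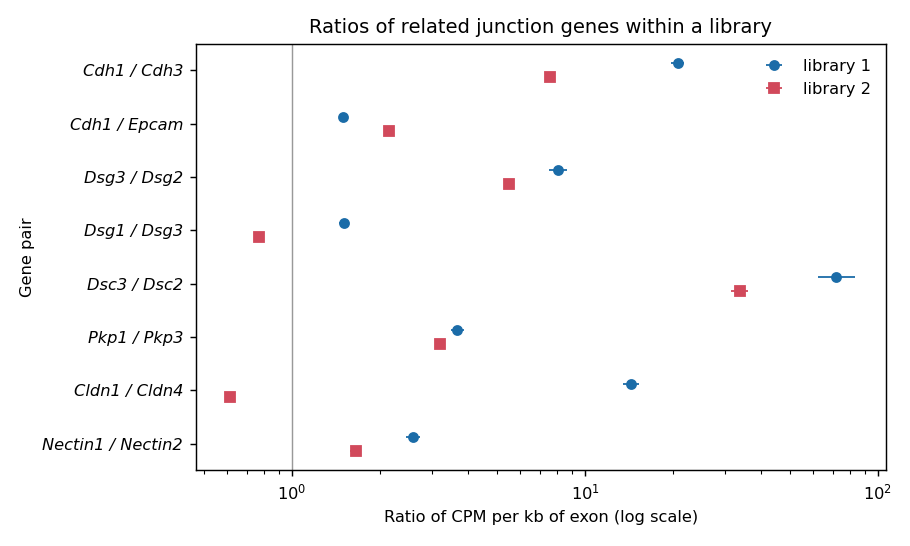
Ratio of CPM per kb of exon for 8 pairs of related junction genes, on a log scale, in library 1 (circles) and library 2 (squares), with exact 95% counting intervals. Cldn1 over Cldn4 falls on opposite sides of 1 (14.3 and 0.613), and so does Dsg1 (Dsg1a and Dsg1b summed) over Dsg3 (1.50 and 0.769).

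How far the members differ between the 2 libraries was measured as the log2 ratio of library 2 over library 1, scaled by the trimmed mean of M values (TMM) and with a prior count of 1. The ratios compare 2 samples of 1 group, not conditions, and no p-value is attached to them. At least 2-fold higher in library 2 were 14 of 35 members (40.0%), against 24.5% of all 30373 genes with at least 1 CPM in a library and 4.95% of the protein-coding genes above background in both. At least 2-fold lower was 1 member, Ctnna1, against 12.6% and 20.7% of genes. The 4.95% and 20.7% cover genes above background in both libraries, whereas the 14 members include Dsc2, within background in library 1. The median ratio of the 35 members was 0.78, beside 0.15 for all genes tested. For the 30 members above background in both libraries it was 0.74, beside -0.43 for the protein-coding genes above background.

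Scaling mattered for genes near the middle. TMM lowers a ratio by 0.50 on the log2 scale against total counts. Higher in library 2 were 24 of 35 members with TMM (68.6%) and 31 with total counts (88.6%), while the share among all genes tested was 55.2% and 73.1%. With total counts 19 members passed 2-fold upward (38.6% of all genes tested did) and 0 downward (5.48%), and Epcam, Cd24a, Ctnnb1, Pkp2, Pkp4, Ocln and Marveld2 turned from lower to higher. Ratios below are TMM-scaled unless total counts are named.

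**Figure D3:**
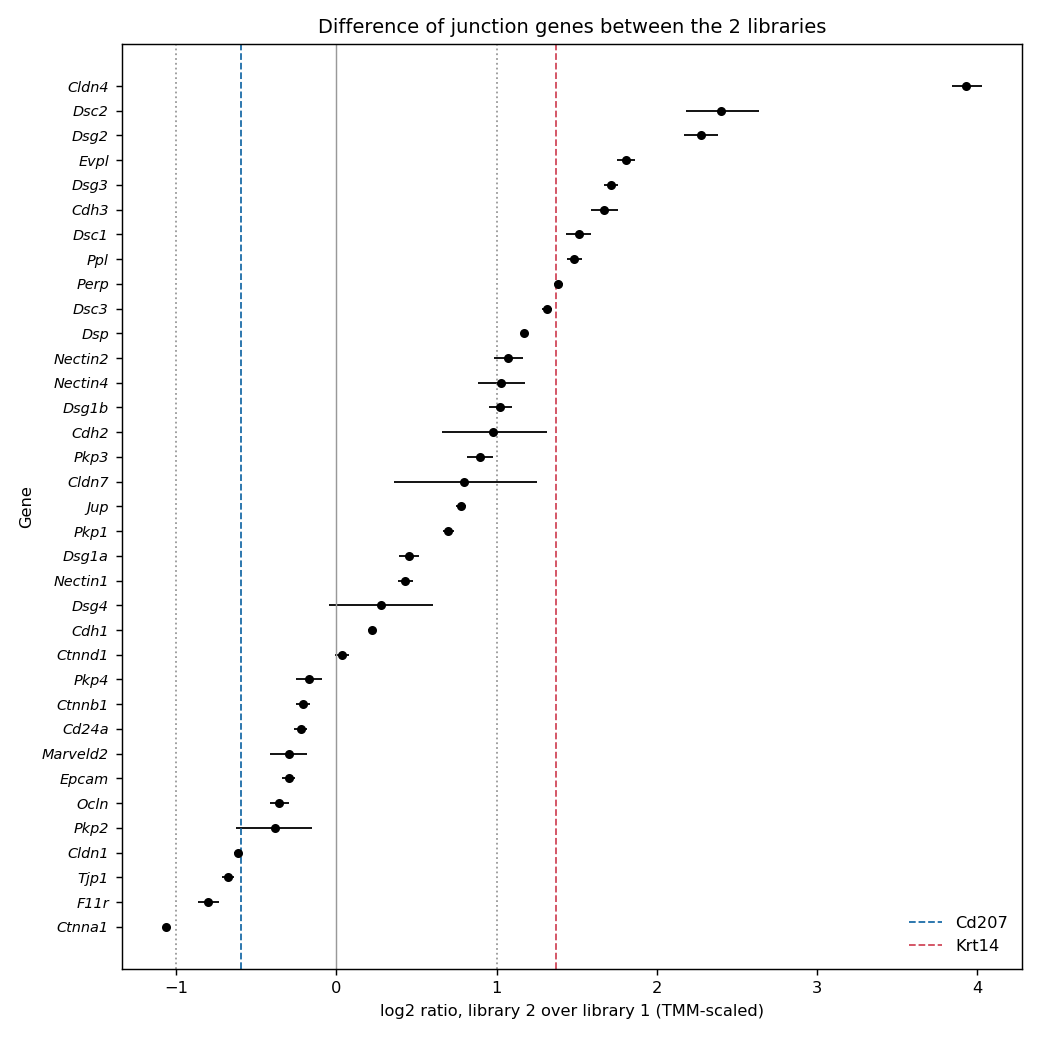
TMM-scaled log2 ratio of library 2 over library 1 for each of the 35 junction genes, in order of size. Bars are exact 95% counting intervals, dotted lines mark 2-fold differences, and dashed lines mark Cd207 (-0.60) and Krt14 (1.37). Ctnna1 lies lowest (-1.06) and Cldn4 highest (3.93), apart from the next member Dsc2 (2.40).

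Members of different structures took different places beside a Langerhans cell gene and a keratinocyte gene. Cd207, which encodes langerin, had a log2 ratio of -0.60, and Krt14, the keratin of basal keratinocytes, 1.37. Cd207 was the highest of the 11 Langerhans and myeloid markers, the other 10 ran from -1.17 (H2-Eb1) to -2.61 (Ptprc), and no member lay below any of those 10. Basal keratinocyte markers spread widely around Krt14, from Krt15 (-0.78), which lay below Cd207, through Itga6 (0.32) and Trp63 (0.50) to Itgb4 (1.55). A place beside Cd207 or Krt14 therefore does not assign a member to a cell type. Below Cd207 lay 4 members: Ctnna1 (-1.06), F11r (-0.80), Tjp1 (-0.68) and Cldn1 (-0.62). Above Krt14 lay 9 members: Cldn4 (3.93), Dsc2 (2.40), Dsg2 (2.28), Evpl (1.81), Dsg3 (1.71), Cdh3 (1.67), Dsc1 (1.51), Ppl (1.48) and Perp (1.38). Cldn1 and Cd207 overlapped within counting error, and so did Perp and Krt14. The other 22 fell between them, among them Cdh1 (0.22), Epcam (-0.30), Cd24a (-0.22), Ctnnb1 (-0.21) and Dsp (1.17). The order of any 2 genes above background is the same under every scaling of the libraries.

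By role, median ratios were highest for the desmosomal cadherins and for the group of Perp, Evpl and Ppl. Of the 8 desmosomal cadherins 6 were at least 2-fold higher in library 2, with a median log2 ratio of 1.41 and a range from 0.28 (Dsg4) to 2.40. Perp, Evpl and Ppl had a median of 1.48. In the desmosomal plaque 1 of 6 genes, Dsp, passed 2-fold, with Pkp3 (0.90), Jup (0.78) and Pkp1 (0.70) next and Pkp4 (-0.17) and Pkp2 (-0.39) below 0. With total counts 4 of these 6 passed 2-fold (Dsp, Pkp3, Jup and Pkp1), while the desmosomal cadherins stayed at 6 of 8. Nectin2 (1.07) and Nectin4 (1.03) passed 2-fold and Nectin1 (0.43) did not. The catenins had a median of -0.21, which turned to 0.29 with total counts. Of the 7 tight junction genes 5 had ratios between -0.80 and -0.30, of which Ocln and Marveld2 turned above 0 with total counts, the others being Cldn7 (0.79) and Cldn4. Keratinocyte markers moved alongside the desmosomal genes, with median log2 ratios of 1.26 (basal, 7 genes, from -0.78 for Krt15 to 1.55 for Itgb4) and 1.98 (suprabasal, 7 genes, from 0.44 for Krtdap to 5.23 for Lor, which was within background in library 1). Their part in the ratios of the junction genes was not tested.

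Markers of other cells of the skin were counted too, and those of 4 cell types were above background more often in library 1, where the limit was lower. Above background in library 1 were 4 of 6 fibroblast genes (among them Col1a1, at 35.6 CPM there and 8.85 CPM in library 2), 3 of 5 endothelial, 5 of 6 T cell and 1 of 5 melanocyte genes, and in library 2 these were 0, 1, 3 and 0. Tyrp1 had 0 counts in library 1 and 158 in library 2. The summed melanocyte level was 5.12 CPM in library 1 and 15.5 CPM in library 2. Of the 5 melanocyte genes 4 had log2 ratios above 0. The fibroblast genes summed to 114 CPM in library 1 and 42.7 CPM in library 2. Of these 6 genes 4 had ratios below 0, while Dcn (1.25) and Pdgfra (0.01) did not. Of 6 genes of the inner hair follicle only Tchh was above the limit in both libraries (2.18 and 7.66 CPM per kb), and Krt28 had 0 counts in library 1 and 14 in library 2. The endothelial gene above background in both libraries was Pecam1, which leukocytes express too (8.37 and 1.96 CPM per kb). The T cell genes included Cd3g (19.9 and 4.95 CPM per kb) and Trdc (10.99 and 3.99 CPM per kb). The summed T cell level was 158 CPM in library 1 and 49.2 CPM in library 2. All 7 mature dendritic cell genes were above background and lower in library 2, from Ccl22 (-3.66) to Relb (-0.73).

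The other genes of the adherens and tight junction were measured next, and the counts for these and the following lists stand against 24.5% of all genes tested at least 2-fold higher in library 2 and 12.6% at least 2-fold lower. Among protein-coding genes above background in both libraries these shares were 4.95% and 20.7%. Of 13 further adherens junction genes 8 were above background in both libraries, with the highest mean levels for the actin crosslinker gene Actn4 (26.7 and 67.6 CPM per kb) and for Afdn, which encodes the nectin-binding scaffold afadin (30.8 and 34.3 CPM per kb). At least 2-fold higher in library 2 were 2 of 13, Arvcf and Lmo7, both within background in library 1. At least 2-fold lower was Pvr, which encodes a nectin-like receptor (log2 ratio -1.03). Among those above background in both, Ajuba had the highest ratio (0.93). Of 25 further tight junction genes 13 were above background in both libraries, among them Lsr, a protein of tricellular contacts (29.8 and 23.6 CPM per kb). Of the 24 tested, 10 passed 2-fold toward library 2 and 2 toward library 1. Among the 10, Cldn3, Cldn8, Cldn12, Jam3 and Magi1 were within background in library 1, and Cldn8 and Jam3 also in library 2. Cldn3, Cldn8 and Jam3 reached 1 CPM only in library 2, so they were tested only through the library where they were higher. The 2 toward library 1, Ildr1 and Esam, were within background in library 2. For the tight junction genes above background in both libraries, ratios ran from Lsr (-0.83) to Crb3, an apical polarity gene (2.72).

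Plakins, gap junction genes and regulators of epithelial identity differed by family. Of 7 further desmosome and plakin genes 6 passed the background limit of each library, and the mean of the libraries was highest for the cytoskeletal linkers Plec (65.9 and 57.6 CPM per kb) and Dst (27.7 and 22.0 CPM per kb). Dst had the lowest log2 ratio of these (-0.84), and Cdsn, which encodes corneodesmosin of the outermost desmosomes, the highest (3.65). Above background in both libraries were 4 of 6 gap junction genes. All 6 had ratios above 0, and 3 were at least 2-fold higher in library 2: Gja1, and Gjb5 and Gjb6, which were within background in library 1. Gjb2 stood at 13.5 and 36.8 CPM per kb, and Gja1 at 6.90 and 23.99 CPM per kb. Of 8 transcription and splicing factors that favour epithelial genes, 7 were above background and 5 at least 2-fold higher, among them Ovol1 (9.45 and 46.2 CPM per kb), Grhl3 (6.42 and 40.8 CPM per kb) and Elf3 (log2 ratio 3.15). Grhl2, an activator of cadherin and claudin genes, had the lowest ratio of those above background (0.10).

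Of 6 repressors of E-cadherin, 4 were above background in both libraries. Zeb1 stood at 17.5 CPM per kb in library 1 and 13.7 CPM per kb in library 2, and Zeb2, which dendritic cells also use, at 16.8 and 6.78 CPM per kb (log2 ratio -1.81). Snai1 (0.962 and 1.85 CPM per kb) and Snai2 (1.63 and 4.39 CPM per kb, log2 ratio 0.93) were low, Twist2 was within background and Twist1 had 0 counts in both libraries.

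Transcripts of genes whose products cut or bind the junction molecules were also detected. All 7 protease and protease inhibitor genes were above background, with the highest means for St14, which encodes matriptase, an enzyme that cleaves Epcam (39.8 and 44.9 CPM per kb), and its inhibitor gene Spint1 (40.4 and 15.8 CPM per kb). Spint1 had the lowest log2 ratio of the list (-1.86) and Spint2 the highest (0.04). Adam10, whose product sheds E-cadherin, had 16.6 and 7.07 CPM per kb (-1.73). Cd44 and Cd9, surface partners of Epcam, were abundant. Cd44 had 91.1 and 139 CPM per kb, and Cd9 had 95.8 and 113 CPM per kb with a log2 ratio of -0.26 (0.24 with total counts).

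Receptors that bind junction molecules on other cells were lower in library 2 where they stood above background. Of 8 such genes, Itgae, Itgb7, Itgal, Cd96 and Tigit passed the background limit in each library. These 5 were at least 2-fold lower in library 2 (Tigit not so with total counts). That share was 12.6% of all genes tested and 20.7% of protein-coding genes above background in both libraries. Klrg1 (0.37), Cd226 (0.92) and Siglecg (-0.07) were within background in both libraries. Itgae and Itgb7, whose products form the E-cadherin receptor of epidermal T cells, had 12.3 and 9.31 CPM per kb in library 1 and 4.80 and 3.52 CPM per kb in library 2. Itgal, a leukocyte integrin chain that binds JAM-A, had the lowest log2 ratio (-2.89) and Tigit, a receptor for Pvr and nectins, the highest of the 5 (-1.35). Summed T cell markers, at 0.311 times their library 1 level in library 2, moved with this list, and their part in it was not tested.

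**Figure D4:**
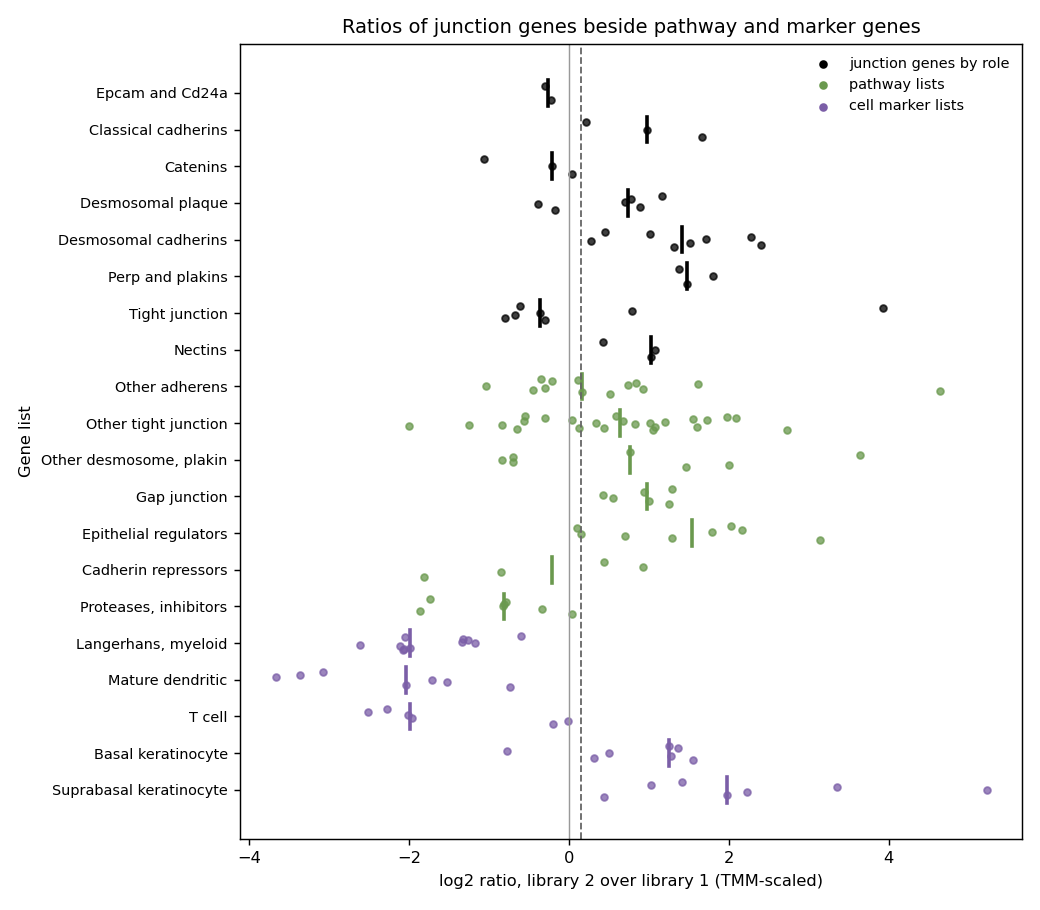
TMM-scaled log2 ratio of library 2 over library 1 for each gene (points) and the median of each list (vertical bars), for junction genes by role, further pathway lists and cell marker lists. The dashed line is the median of all genes tested (0.15). Langerhans and myeloid markers centre on -1.99 and suprabasal keratinocyte markers on 1.98, and the medians of the junction gene roles lie between -0.36 and 1.48.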

How the data were processed

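RNA was measured in 2 samples of 1 group. Per the labels' protocols, a stranded total RNA kit for low input was used on 10 to 70 ng. The authors deposited raw counts, whole numbers with 1 column per library. Tools named in the submitters' processing notes are HISAT2, StringTie, Trimmomatic and SAMtools, with the build GRCm38. The sources used here do not give versions, annotation, strand setting or how counts were formed, so reads of overlapping genes on opposite strands cannot be told apart. The column without a replicate number is library 1. A closing row of column totals without a gene was dropped.

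Symbols, positions and union exon lengths came from GENCODE M21 (55227 of 55487 rows matched); promoters came from RefSeq on GRCm38.p6. The members were matched by symbol, 35 of 35. TMM factors came from edgeR 4.0.16 and size factors from DESeq2 1.42.0 (R 4.3.3). A quasi-likelihood test was not run, since 2 samples of 1 group leave no residual degrees of freedom for their difference. Ratios and intervals were tested on simulated counts that held only Poisson noise and a small set of changed genes, as many up as down. That setting does not show how TMM behaves where many genes differ, as between these libraries. A count of 0 allows up to 3 counts, 0.0429 CPM in library 1 and 0.0710 CPM in library 2. Intervals take counts as independent and cover counting error only. The members and lists were chosen with earlier results of these data known. All members were named; of the other lists, the 2 highest genes per kb and the extreme ratios among genes above background (a few genes that this rule picks are not reported here), with further genes (Arvcf, Lmo7, Adam10, Grhl3 and the like) chosen after their values were seen. The olfactory receptor background, the AP-1 motif and the comparison with Cd207 and Krt14 were added after the data were seen.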

Additional observations from a re-analysis of the deposited data

How the results depend on the processing

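The number of members above background was 30 at the 95th and at the 99th percentile of olfactory receptor genes, 32 without length correction, and 31 in each library taken alone. The median level of the members, 24.1 CPM per kb over both libraries, ran from 10.6 with library 1 alone to 25.3 with library 2 alone. The members at least 2-fold higher in library 2 numbered 11 with DESeq2 size factors, which took out Dsg1b, Nectin2 and Nectin4, 19 with total counts and 14 in the 4 other settings (no filter on low counts, at least 10 counts in both libraries, a prior count of 5, background subtraction). Those at least 2-fold lower numbered 0 with total counts and 2 after background subtraction, where Pkp2 joined Ctnna1. The median log2 ratio of the members was 1.28 with total counts and 0.65 after background subtraction. No member that differed at least 2-fold changed direction under these settings. The order of 6 of 8 gene pairs was shared by both libraries, also after background subtraction, and that of 7 without length correction. Every member had at least 73 counts in each library. Counting error limits the ratio most for Cldn7 (interval 0.36 to 1.25) and Cdh2 (0.66 to 1.31), and the intervals of Dsg4 (-0.04 to 0.60) and Ctnnd1 (-0.01 to 0.08) included 0. No paired analysis was possible because both samples belong to 1 group. Leaving out a library leaves no ratio between libraries.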
